A study of Mus musculus with 36 samples.

Results

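The genes described here are 38 members of the WNT pathway in the mouse: 19 WNT ligands, 8 frizzled receptors and the co-receptor Lrp6, 7 secreted inhibitors (4 Sfrp and 3 Dkk genes), and 3 genes that are read as the output of the pathway (Axin2, Lef1 and Tcf7). They were listed by name and role, with no threshold on their methylation. Every CpG between 2 kb before and 2 kb after each gene was taken and placed in 1 of 3 zones. The promoter core lay within 500 bp of a start site of a protein-coding transcript, the promoter shore from 500 to 2000 bp of the nearest such start, and the gene body was the rest. A zone was tested when it held at least 3 CpGs that were covered by 5 or more reads in all 35 embryos compared. Of the 114 zones of the members, 94 met this (34 cores, 30 shores and 30 bodies), with 3523 CpGs, and 36 of the 38 genes had at least 1 such zone, out of 16008 of 20720 autosomal protein-coding genes.

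The study asked how loss of the 5-methylcytosine dioxygenase TET1 and the amount of folic acid in the diet of the dam change DNA methylation in the embryonic brain. Methylation was read by oxidative bisulfite sequencing of MspI and TaqI restriction fragments (RRBS), which reports 5-methylcytosine without 5-hydroxymethylcytosine, in 36 libraries, each from 1 brain at embryonic day 11.5, forebrain to hindbrain. All embryos carried the 129S6.Cg background and came from dams heterozygous for the Tet1 tm1Koh allele, with 4 litters per diet. A litter could thus hold wild-type (WT), heterozygous (HET) and homozygous mutant (KO) embryos. Not every litter sampled held all 3 genotypes, and some KO and HET embryos had no WT littermate here. The allele was mutant in every cell of a KO embryo. The diets of the dams held 3 ppm folic acid as the control, 30 ppm as the excess and 0.1 ppm as the depleted condition, and all 3 diets held the antibiotic succinyl sulfathiazole. There were 3 WT, 5 HET and 6 KO embryos at 30 ppm, 4 WT, 3 HET and 5 KO at 3 ppm, and 2 WT, 3 HET and 5 KO at 0.1 ppm. One HET library of 0.1 ppm, left out by the study, was left out here except in 1 alternative given at the end, which leaves 9 WT, 10 HET and 16 KO embryos. Among the KO embryos 7 were labelled normal, 5 as having a neural tube defect (NTD) and 4 with the label inHB. HET replicates 3 and 4 of 30 ppm and WT replicate 2 of 0.1 ppm were labelled inHB too. For the embryos with this label the study's sample list gives a brain malformation.

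The 35 libraries compared held 25.6M to 197M CpG calls (median 34.09M), and mean coverage ran from 12.1 to 61.5 reads per listed CpG. No methylation markers of cell types were examined to set against the tissue label, and in a whole brain a change within cells and a change in the share of cell types cannot be told apart. The genotype labels were checked at a CpG in Tet1 (chromosome 10, position 62884019), which was 0 to 7.32% methylated in 7 WT libraries, 8.33 to 69.2% in the 10 HET and 69.6 to 100% in 15 KO libraries. This CpG was picked as the one in Tet1 with the largest difference between the KO and WT medians under these labels. The separation of most KO and WT libraries therefore follows in part from the choice. These libraries had 8 to 103 reads there in WT, 10 to 31 in HET and 9 to 26 in KO. The other 3 libraries went against their labels. The library labelled KO replicate 1 of 30 ppm stood at 45%, the library labelled WT replicate 2 of 30 ppm at 36.36%, and the library labelled WT replicate 2 of 0.1 ppm at 40%. The study's own sample list names the KO library among these as HET, whereas the deposited label, followed here, names it as KO, so the KO and HET groups of 30 ppm differ from the study's by this embryo. For both WT libraries that list and the label are the same. All 3 libraries were kept in every comparison under their deposited labels, and the count of each comparison that includes them is also given without them. They were singled out by methylation at Tet1, so leaving them out can by itself widen the differences between genotypes. Counts without them follow in part from this choice and are no independent support.

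WNT proteins are secreted, lipid-modified signals that bind a frizzled receptor together with LRP5 or LRP6. In the canonical branch this stops the destruction of β-catenin, which then acts with the TCF/LEF factors on target genes such as Axin2, while other branches steer cell polarity and movement. In the embryonic brain, WNT signals from the dorsal midline and from the border of midbrain and hindbrain pattern the tissue and keep its progenitors dividing, and SFRP and DKK proteins restrain them.

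Sequences of stretches that are described below follow, each 5′ to 3′ on the strand of its gene in the mm10 (GRCm38.p6) assembly of RefSeq, with the measured CpGs in capitals. The reference is C57BL/6J, whereas the embryos were 129S6, and differences between the strains were not examined. Wnt3a, Axin2, Wnt2 and Fzd5 are the stretches around CpGs of 1 kb tiles with large KO differences. Fzd1, Dkk3 and Tcf7 were chosen after their values were seen.
Wnt3a intron, chr11:59284296-59284387, minus strand: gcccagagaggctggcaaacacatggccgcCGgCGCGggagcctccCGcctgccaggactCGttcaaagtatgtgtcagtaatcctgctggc
Axin2 intron, chr11:108941081-108941157, plus strand: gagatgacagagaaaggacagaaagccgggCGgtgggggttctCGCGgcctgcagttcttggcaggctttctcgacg
Wnt2 upstream, chr6:18031435-18031565, minus strand: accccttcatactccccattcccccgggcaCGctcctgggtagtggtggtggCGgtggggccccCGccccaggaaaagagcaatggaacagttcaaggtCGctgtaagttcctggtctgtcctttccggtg
Fzd5 coding exon, chr1:64734976-64735258, minus strand: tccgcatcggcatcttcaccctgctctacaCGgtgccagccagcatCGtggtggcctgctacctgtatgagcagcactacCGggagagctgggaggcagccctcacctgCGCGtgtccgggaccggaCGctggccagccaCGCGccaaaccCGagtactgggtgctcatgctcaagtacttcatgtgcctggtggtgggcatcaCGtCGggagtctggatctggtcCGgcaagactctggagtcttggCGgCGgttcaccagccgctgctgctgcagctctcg
Fzd1 coding exon, chr5:4755954-4756102, minus strand: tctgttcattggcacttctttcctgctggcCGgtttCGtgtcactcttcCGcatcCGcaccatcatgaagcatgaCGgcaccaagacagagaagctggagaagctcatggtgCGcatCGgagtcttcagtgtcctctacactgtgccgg
Dkk3 intron, chr7:112158684-112158771, minus strand: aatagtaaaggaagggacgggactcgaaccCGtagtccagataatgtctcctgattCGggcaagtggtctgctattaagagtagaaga
Tcf7 upstream, chr11:52283898-52284164, minus strand: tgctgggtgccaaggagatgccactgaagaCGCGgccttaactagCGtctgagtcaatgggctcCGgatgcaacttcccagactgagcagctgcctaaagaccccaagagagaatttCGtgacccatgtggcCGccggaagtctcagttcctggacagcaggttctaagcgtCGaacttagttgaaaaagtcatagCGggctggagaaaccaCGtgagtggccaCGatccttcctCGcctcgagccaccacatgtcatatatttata

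In WT brains the promoters of the WNT genes were almost free of methylation. The level of a zone is the share of its CpG reads that were methylated, averaged over embryos. Of the 34 cores, 32 lay under 2% in WT (94.1%, against 85.2% of all cores), and the lowest were Fzd8 at 0.536%, Wnt3 at 0.570% and Lef1 at 0.578%. The exceptions were Wnt8a, a ligand of early gastrulation, at 25.6%, and Dkk3, a distant member of the Dickkopf family, at 2.89%. Dkk1, which blocks the LRP co-receptors and is needed for head formation, came next at 1.66%. Among the shores 22 of 30 lay under 2% (73.3%, against 44.5% of all shores), led from below by Lrp6 (0.472%), Wnt9a (0.496%) and Sfrp1 (0.513%). The highest shores were Wnt8a (73.1%), Fzd9 (25.3%) and Wnt11 (9.66%).

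Gene bodies spread over the whole range, with a median WT level of 39.2% against 83.1% for all genes tested. The bodies of Fzd8, an intronless receptor gene (0.705%), Wnt10a (0.799%) and Wnt1, the ligand of the midbrain and hindbrain border (1.53%), were as empty as promoters. The bodies of Wnt2b (95.7%), Tcf7 (89.9%) and Wnt7a (88.3%) were nearly full. RefSeq promoters of 300 bases were found for 28 of the 38 members (35 promoters), and they held a median of 24 CpGs against 7 over all autosomal genes. This reference, 31396 promoters of 25748 genes, was not limited to protein-coding genes. The TCF/LEF motif CTTTGAT, searched on both strands, was present in 2 of the 35 (Wnt11 and Wnt5b, 5.71%) and in 3.76% of all promoters. The 250 bases upstream of Axin2, the standard reporter of canonical signalling, are shown as an example of such a promoter, here with no capitals.
Axin2 promoter, chr11:108920099-108920348, plus strand: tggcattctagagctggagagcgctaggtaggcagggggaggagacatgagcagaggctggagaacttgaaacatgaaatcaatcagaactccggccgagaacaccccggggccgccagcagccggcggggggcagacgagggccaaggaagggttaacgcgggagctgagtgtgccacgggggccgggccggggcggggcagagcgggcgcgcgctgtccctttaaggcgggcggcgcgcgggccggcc
It held 24 CpGs, 16 of them measured, and their mean level was 0.731% in WT, 0.714% in HET and 0.953% in KO embryos. It had no match to the motif.

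Dkk2 and Wnt16 had no zone that could be tested. At the CpGs that each embryo covered on its own, the Dkk2 core averaged 0.928% in 9 WT and 1.63% in 15 KO embryos, and the Dkk2 body 86.2% in 9 WT and 91.0% in 16 KO embryos. The Wnt16 body averaged 73.8% in 7 WT and 80.6% in 10 KO embryos. These sets of CpGs differ from embryo to embryo, so they carry no test. The other zones left untested were the bodies of Dkk1, Fzd4, Fzd9, Fzd10, Sfrp4 and Sfrp5, the shores of Sfrp4, Sfrp5, Wnt6, Wnt7a, Wnt8b and Wnt9b, and the cores of Wnt10a and Wnt8b.

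**Figure D1:**
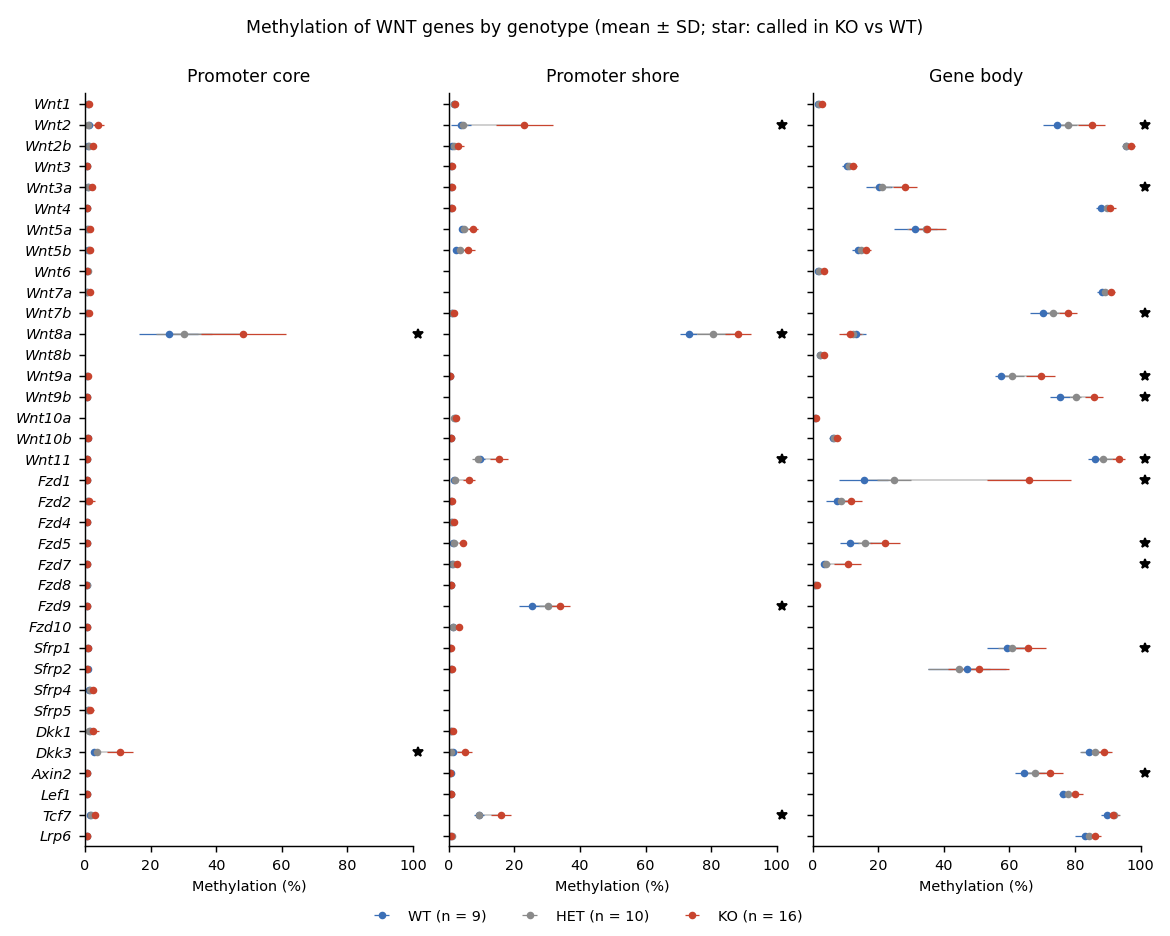
Methylation level (%) of every tested zone of the members in WT, HET and KO embryos, as mean ± SD over 9, 10 and 16 embryos, with promoter cores, shores and bodies apart; a star marks a zone called higher in KO than in WT. Most cores and shores sit near 0 in all 3 genotypes, and the starred zones lie mainly among the bodies.

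Loss of TET1 raised methylation at 18 of the 94 zones, in 15 of the genes, and lowered it at none, while 57 member zones were higher and 1 was lower at an unadjusted p under 0.05. That p was met by 61.7% of the member zones and by 45.0% of all zones, and 0.958% of the latter were lower. A zone was called when its adjusted p was under 0.05 and the difference was at least 5 percentage points (quasi-binomial model of the methylated reads with limma-moderated dispersion, Benjamini-Hochberg over all 32705 zones), and the comparison of KO with WT carried diet as a covariate. Among the cores 2 of 34 were called higher (6.54% of all cores were), among the shores 5 of 30 (23.4% of all shores), and among the bodies 11 of 30 (23.2% of all bodies). The median differences of the members were 0.15 points in cores, 0.56 in shores and 3.43 in bodies, and those of all genes 0.11, 1.28 and 2.66. A further 9 cores, 12 shores and 14 bodies passed the adjusted p with a difference under 5 points. With the called zones, 11 of 34 cores, 17 of 30 shores and 25 of 30 bodies passed it. Over all genes 3044 of 12835 cores, 3484 of 7830 shores and 6336 of 12040 bodies did. Calls were unevenly spread over the WT levels. None of the 58 member zones under 2% in WT was called by the limma-moderated model (0.875% of all such zones were), with 26 at an unadjusted p under 0.05, against 5 of 11 at 2 to 10%, 5 of 10 at 10 to 50%, 7 of 8 at 50 to 80% and 1 of 7 above 80%. Over all genes the shares in these 4 classes were 31.2%, 49.0%, 57.7% and 8.87%.

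Without the libraries against their labels, 22 zones were called (20.2% of all zones of all genes were), 4 more than with them: the shore of Fzd1 (5.28 ± 0.551 points, SE), and the bodies of Dkk3 (5.07 ± 1.10), Fzd2 (6.33 ± 1.38) and Sfrp2 (6.23 ± 4.67). The values of the 15 KO and 7 WT embryos left then stood fully apart in 15 of the 18 zones. With all libraries, all 16 KO embryos stood above every WT embryo in 1 zone, the shore of Wnt8a, and 15 of them did so in 9 more. Both counts are of zones called in these same embryos, so they describe the calls and add no support to them. The share of such zones over all genes was not counted. Just under the limit of 5 points with all libraries were the shore of Fzd1 (4.66), and the bodies of Fzd2 (4.48) and Dkk3 (4.46). The lowest called zones were the shore of Wnt11 (5.79) and the body of Sfrp1 (5.96).

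Seen by distance, the CpGs of the members changed least at the start sites themselves. Within 500 bp before a start site, 554 CpGs averaged 0.811% in WT and 1.24% in KO embryos, and within 500 bp after it 976 CpGs averaged 0.903% and 1.35%. At 1500 to 2000 bp downstream the 210 CpGs averaged 7.22% in WT and 11.0% in KO, and at 2000 to 5000 bp the 176 CpGs averaged 13.1% and 18.3%. Of the CpGs in these last 2 classes 15.2% and 18.2% were over 10 points higher in KO. Upstream, 10.3% of the 29 CpGs at 2000 to 1500 bp, 8.89% of the 45 at 1500 to 1000 bp and 11.3% of the 141 at 1000 to 500 bp were. Within 500 bp on either side of the start sites 0.903% and 1.02% were, and no class held a CpG over 10 points lower. These shares were not counted over all genes, so the pattern is not shown to be particular to the members.

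Among the ligands, 10 of 48 zones in 7 of the 18 genes tested were higher in KO embryos (20.8%, against 16.7% of all zones). Wnt2 (chr6:17988940-18030585), a canonical ligand best known from lung and placenta, had the widest difference of any promoter shore of the members. Its shore, 6 CpGs upstream of the start that include those in the Wnt2 sequence above, ranged from 1.65 to 11.48% in WT (median 2.58), from 2.07 to 6.70% in HET (median 4.46) and from 3.74 to 36.9% in KO embryos (median 22.4). KO and WT overlapped through single embryos: 15 of the 16 KO embryos were above every WT embryo, the lowest KO embryo was the library against its label, and so was the highest WT embryo. The fitted difference was 19.6 ± 3.17 points (adjusted p = 1.66e-07), and 22.2 ± 3.03 without the 3 libraries. The Wnt2 body, 8 CpGs, rose from 74.7% ± 4.31 (SD, n = 9) in WT to 85.1% ± 4.07 (SD, n = 16) in KO.

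Wnt8a was the only ligand called in its core, with 3 CpGs at 25.6% ± 9.01 in WT against 48.3% ± 12.9 in KO embryos. In its shore WT embryos ranged from 68.6 to 76.7% (median 73.8), HET embryos from 72.1 to 88.8% (median 81.0) and KO embryos from 80.6 to 94.7% (median 89.0). Here no KO embryo overlapped a WT embryo, whatever its label, while the HET embryos lay across both. The difference in the shore was 15.2 ± 1.46 points (adjusted p = 6.36e-09). Wnt8a lies on chromosome 18, and its letters are not shown.

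Wnt9a, expressed in joints and limb, and Wnt9b, which induces kidney tubules, changed in their bodies. The 24 CpGs of Wnt9a ranged from 53.2 to 60.3% in WT and from 57.8 to 74.6% in KO embryos, with medians of 57.9 and 69.9% (difference 11.9 ± 1.53 points, adjusted p = 5.46e-08). The 30 CpGs of Wnt9b ranged from 72.4 to 80.4% and from 76.5 to 88.2%, with medians of 74.3 and 86.3% (difference 10.3 ± 1.16 points, adjusted p = 1.39e-08). In both genes 15 of 16 KO embryos were above every WT embryo, all but the KO library of 30 ppm that went against its label.

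Wnt3a, made in the cortical hem and the tail bud, gained 7.84 ± 1.53 points in its body, from a median of 19.6% (14.99 to 27.2%) in WT to 28.1% (21.3 to 34.26%) in KO embryos. The ranges overlapped, with 12 KO embryos above every WT embryo. The widest differences lay in the 5 intronic CpGs shown above, 6396 to 6426 bp from the start site, a stretch chosen as the tile with the largest difference of any member. They averaged 24.1% ± 11.7 in WT, 32.6% ± 6.68 in HET and 70.0% ± 14.1 in KO embryos. The library labelled KO replicate 1 of 30 ppm stood at 27.8%, and the 2 WT libraries against their labels at 44.2 and 44.8%.

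Wnt7b, a ligand of the forebrain and its vessels, gained 7.58 ± 1.32 points in its body (70.2% in WT, 77.9% in KO), and Wnt11, a ligand of the noncanonical branch, gained 7.22 ± 0.821 points in its body and 5.79 ± 0.955 in its shore. These last 3 calls rest on which start sites are counted: with only the 5′ end of the gene as a start site the differences were 3.66, 1.97 and 1.90 points. The remaining 11 ligand genes tested had no called zone. They include Wnt1 and Wnt3, dorsal midline ligands, and Wnt5a, the main noncanonical ligand, whose body differed by 3.49 ± 2.58 points and in which no KO embryo stood above every WT embryo.

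Of the 24 receptor zones 4 were called (16.7%, the same share as of all zones), each in a different frizzled gene. Fzd1 (chr5:4753839-4758035), a gene with a single coding exon, had the largest difference of all members. Its body, 3 CpGs covered by 39 to 468 reads in all, ranged from 8.70 to 30.2% in WT (median 13.3), from 15 to 30.7% in HET (median 25.5) and from 26.9 to 85.1% in KO embryos (median 68.5). All but 1 KO embryo stood far above every WT and HET embryo, and that one was the library labelled KO replicate 1 of 30 ppm. The difference was 51.1 ± 4.68 points (adjusted p = 2.83e-10), and 58.0 ± 2.95 without the 3 libraries.

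The limit between shore and body at 2000 bp cut this stretch. The 7 CpGs in capitals in the Fzd1 sequence lie 1964 to 2051 bp from the start site, inside the coding sequence, and together averaged 12.8% ± 7.94 in WT, 19.6% ± 4.70 in HET and 60.1% ± 13.2 in KO embryos. Every one of the 7 was higher in KO, by 27.8 to 53.9 points. The difference faded towards the promoter: 10 CpGs at 1531 to 1621 bp averaged 1.09% in WT and 7.33% in KO, 31 CpGs at 521 to 1220 bp 0.591% and 0.616%, and 69 CpGs of the core 0.687% and 0.602%.

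Fzd5, a receptor needed for eye and vessel development, gained 10.8 ± 1.69 points in its body. Its 28 CpGs, read 536 to 4174 times, ranged from 8.21 to 15.9% in WT (median 11.0), from 13.2 to 19.4% in HET (median 15.9) and from 12.1 to 30.2% in KO embryos (median 22.3). The HET range overlapped both others, and 15 KO embryos stood above every WT embryo. The 14 CpGs of the Fzd5 sequence above, in its coding exon, averaged 12.9% in WT, 16.5% in HET and 29.5% in KO.

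Fzd7, a receptor of stem and progenitor cells, rose from 3.62% ± 0.927 to 10.7% ± 4.18 in its body (difference 6.92 ± 1.49 points). Fzd9, whose human counterpart lies in the Williams syndrome region, rose from 25.3% ± 3.79 to 33.9% ± 3.18 in its shore (8.72 ± 1.33). No core of a receptor was called by the limma-moderated model (0 at an unadjusted p under 0.05), and all 9 differed by less than 1 point, from -0.22 to 0.36. Lrp6, the co-receptor of the canonical branch, differed by less than 5 points in each zone, from 0.628 to 0.542% in the core and from 83.0 to 86.3% in the body.

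Among the secreted inhibitors 2 of 13 zones were called (15.4%, against 16.7% of all zones). Dkk3 (chr7:112116017-112159057) was called in its core, from 1.94 to 4.61% in WT (median 2.62), 2.56 to 5.97% in HET (median 3.34) and 3.55 to 19.7% in KO embryos (median 10.5). The lowest KO embryo, the library against its label, was the only one within the WT range. The difference was 8.25 ± 1.30 points (adjusted p = 3.74e-08). It lay mainly in both CpGs of the Dkk3 sequence above, in an intron 317 to 343 bp from the start site, which averaged 10.2% in WT, 15.1% in HET and 38.1% in KO embryos, whereas the other 7 CpGs of the core averaged 1.40%, 0.700% and 3.38%. The Dkk3 shore as a whole differed by 3.82 ± 0.779 points, under the limit for a call.

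Sfrp1, a decoy that binds WNT ligands and is strongly expressed in the early forebrain, was the weakest call, with a body of 9 CpGs at 59.4% ± 6.30 in WT and 65.6% ± 5.69 in KO embryos. The groups overlapped widely, with 3 KO embryos above every WT embryo, and the difference of 5.96 ± 1.77 points (adjusted p = 0.0136) fell to 4.998 and was no longer called without WT replicate 3 of 30 ppm. With all libraries, zones of Sfrp2, Sfrp4, Sfrp5 and Dkk1 that could be tested were not called. The Sfrp2 body, with 3 CpGs, was called only without the libraries against their labels, at a difference with a wide SE, as given above. In 2 zones with too few shared CpGs, chosen after their values were seen, the levels of each embryo's own CpGs were 49.3% ± 17.7 in 8 WT and 77.6% ± 11.95 in 14 KO embryos for the Dkk1 body, and 20.5% ± 6.96 in 6 WT and 41.5% ± 17.4 in 12 KO embryos for the Sfrp4 shore. Some other zones left untested differed less, such as the Fzd4 body (93.7% in 9 WT and 93.4% in 15 KO embryos) and the Sfrp5 shore (2.67% in 7 WT and 7.63% in 12 KO embryos).

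Of the 9 zones of the pathway's output genes 2 were called (22.2%, against 16.7% of all zones). Tcf7, a TCF/LEF factor, was called in its shore and Axin2, the feedback inhibitor, in its body. The Tcf7 shore ranged from 7.59 to 11.54% in WT (median 8.94), from 7.68 to 10.3% in HET (median 9.21) and from 11.4 to 21.1% in KO embryos (median 15.9). The HET range lay within the WT range, and 15 KO embryos stood above all WT embryos (difference 6.97 ± 1.07 points, adjusted p = 9.26e-08). In the Tcf7 sequence above, the 11 CpGs in capitals averaged 8.09% in WT, 7.97% in HET and 16.7% in KO embryos. The Axin2 body, 49 CpGs, ranged from 61.2 to 70.0% in WT, 64.4 to 72.7% in HET and 61.9 to 78.1% in KO embryos, with medians of 63.4, 66.5 and 73.0% (7.88 ± 1.51 points, adjusted p = 7.38e-05). Lef1, the third output gene, had no called zone.

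**Figure D2:**
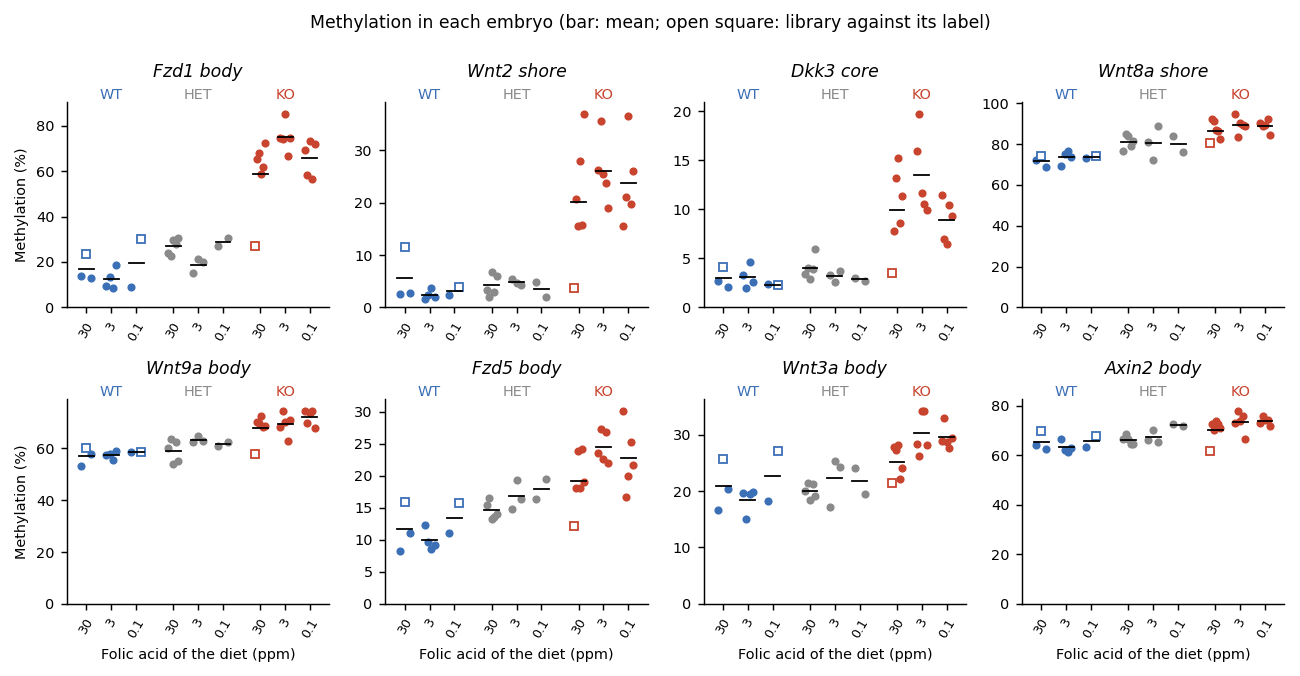
Methylation level (%) of single embryos in 8 zones, Fzd1 body, Wnt2 shore, Dkk3 core, Wnt8a shore, Wnt9a body, Fzd5 body, Wnt3a body and Axin2 body, by genotype and by folic acid in the diet (ppm); bars are the means of these groups and open squares are the 3 libraries that went against their labels. In all 8 panels the open square among the KO embryos is the lowest of them, as at Fzd1 with 26.9% against 56.7% or more in the others.

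**Figure D3:**
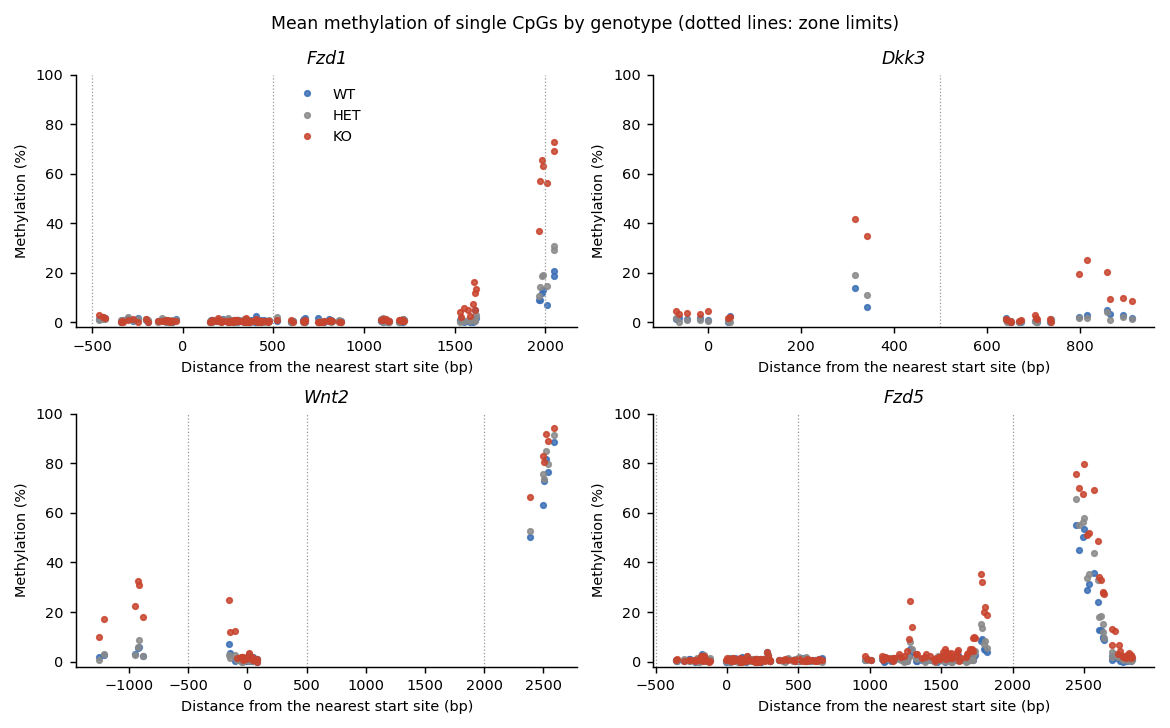
Mean methylation level (%) of single CpGs by genotype against the distance (bp) from the nearest start site in Fzd1, Dkk3, Wnt2 and Fzd5; dotted lines are the limits of the zones, and CpGs farther from the start site than the axis shows are not drawn. In Fzd1 the KO points leave those of WT and HET beyond about 1500 bp, and in Dkk3 at the intronic pair of CpGs.

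Fixed tiles of 1 kb, which do not depend on start sites, placed the differences along the genes. Of 189 tiles with member CpGs, 23 in 14 genes were higher in KO embryos by 10 points or more (12.2%, against 9.78% of all tiles), and none was lower. Without the libraries against their labels 28 were (12.2% of all tiles). The leading tile of a gene was in an intron for Wnt3a (45.76 ± 5.41 points) and Axin2 (24.99 ± 4.26), across a coding exon and intron for Wnt8a (22.5 ± 3.21) and upstream for Wnt2 (19.6 ± 3.17). It lay in coding sequence for Fzd5 (18.9 ± 2.37), and took in a UTR for Wnt9b (18.3 ± 2.43) and Wnt9a (16.02 ± 3.37). At the Axin2 tile the 3 CpGs shown above averaged 43.2% in WT, 53.7% in HET and 69.3% in KO embryos.

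Taken diet by diet, with 5 or 6 KO embryos against 2 to 4 WT embryos, the largest set of calls with all libraries came at 3 ppm, with 2 cores, 6 shores and 11 bodies (6.61%, 22.3% and 25.9% of all cores, shores and bodies). These were the zones called over all diets other than the Sfrp1 body, with the shore of Fzd1 (5.49 ± 0.820 points) and the body of Dkk3 (5.01 ± 2.09) added. At 0.1 ppm 1 core, 5 shores and 10 bodies were called (5.43%, 15.1% and 18.7% of all). The body of Wnt5a was among them, at 28.8% ± 1.34 in WT and 38.1% ± 3.37 in KO embryos (difference 9.28 ± 2.57 points), and its KO effect exceeded that at 3 ppm by 7.89 ± 5.21 points, a difference that was not called. The 0.1 ppm count of 16 went to 7 without WT replicate 1 (6.01% of all zones), which leaves the library against its label as the only WT embryo, and to 17 without that library (13.5% of all zones). Either way 1 WT embryo is left, which is assumed to vary like the KO embryos. With litter as a block the bodies of Wnt5a (7.43 points), Wnt2 (8.51) and Wnt3a (5.08) and the shores of Wnt11 (5.34) and Tcf7 (2.87) were no longer called at 0.1 ppm, nor was the Dkk3 body (4.89) at 3 ppm.

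At 30 ppm no core, 1 shore and 2 bodies of the members were called (1.25%, 3.49% and 3.55% of all), with 31 member zones at an unadjusted p under 0.05. They were the Wnt8a shore (14.8 ± 2.96 points), the Wnt9a body (10.7 ± 3.34) and the Fzd1 body (42.0 ± 10.0). Both a KO and a WT library of this diet went against their labels, and without them 20 member zones were called (16.4% of all zones). The count was 15 without the KO library alone (11.4% of all zones) and 13 without the WT library alone (9.47%). Leaving out any one of the other embryos of 30 ppm gave 0 or 1 (0 to 0.00917% of all zones), and with litter as a block 0 zones were called (0% of all), at differences of 13.3 points in the Wnt8a shore, 10.5 in the Wnt9a body and 41.202 in the Fzd1 body. Both libraries against their labels lay in litters with KO and WT embryos, on which the block rests. The block was not fitted without these libraries.

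The test of the difference between diets called none of the members. For 30 against 3 ppm the KO effect on the members differed from -20.5 points (Fzd1 body) to 2.76 points (Sfrp1 body), with 0 zones called (0% of all zones) and 8 at an unadjusted p under 0.05 in the limma-moderated quasi-binomial model, all of them lower at 30 ppm, as were 88.9% of the 1968 zones of all genes at that p. Without the libraries against their labels the Fzd1 difference was -10.7 ± 5.84 points, and 0 zones were called (0% of all) with 2 at an unadjusted p under 0.05 in this limma-moderated model, both lower at 30 ppm. For 0.1 against 3 ppm it differed from -16.2 (Fzd1 body) to 7.89 points (Wnt5a body), with 0 called (0% of all) and 1 at an unadjusted p under 0.05, the Tcf7 shore. Without the WT library against its label, which leaves 1 WT embryo at 0.1 ppm, assumed to vary like the other groups, the Fzd1 difference was -5.60 ± 8.49 points, and 0 zones were called (0% of all) with 3 at an unadjusted p under 0.05 in this limma-moderated model, the cores of Sfrp1 and Wnt10b and the shore of Fzd7. The Fzd1 body stood at 58.8% ± 16.3 (n = 6), 75.02% ± 6.55 (n = 5) and 65.9% ± 7.81 (n = 5) in KO embryos at 30, 3 and 0.1 ppm, and at 65.1% ± 5.44 (n = 5) at 30 ppm without the library against its label. In WT embryos it stood at 16.8% ± 5.98 (n = 3), 12.6% ± 4.65 (n = 4) and 19.6% ± 14.9 (n = 2).

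**Figure D4:**
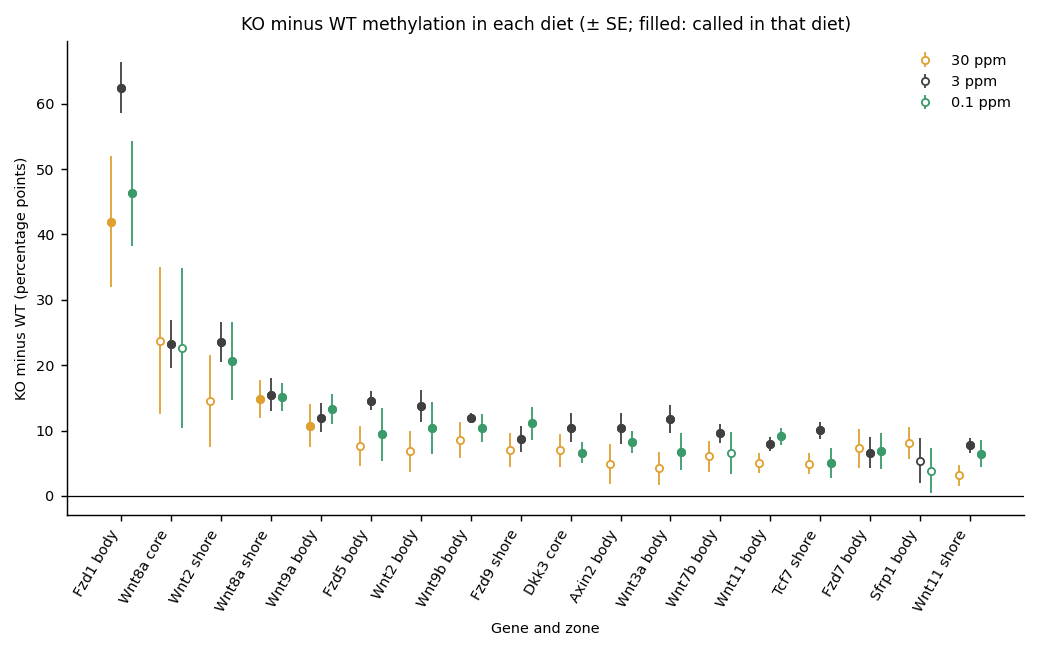
Difference of KO from WT (percentage points, ± SE) at 30, 3 and 0.1 ppm folic acid for the 18 zones called over all diets; filled markers are zones called in that diet. All differences are above 0, and 3 zones are filled at 30 ppm.

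HET embryos were compared with the same WT embryos, so that the HET and KO differences share their controls. With all libraries no member zone was called over the 3 diets (0.144% of all zones were), and 15 had an unadjusted p under 0.05 in the limma-moderated quasi-binomial model, 14 of them higher in HET. The smallest adjusted p was 0.0503, at the body of Fzd5 (4.76 ± 1.12 points). The Fzd1 body was 24.9% ± 5.21 in HET against 15.5% ± 7.36 in WT embryos (8.49 ± 2.56 points), the Wnt8a shore 80.7% ± 4.92 against 73.1% ± 2.67 (7.70 ± 1.99) and the Wnt9b body 80.2% ± 1.72 against 75.4% ± 3.00 (4.82 ± 1.19).

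Without the libraries against their labels 6 member zones were called, all higher in HET (2.23% of all zones): the Fzd1 body (11.4 ± 2.22 points), the Wnt8a shore (8.21 ± 2.33), and the bodies of Wnt9b (6.54 ± 0.789), Fzd5 (6.19 ± 0.880), Wnt2 (5.18 ± 1.43) and Wnt7b (5.14 ± 0.939). Both WT libraries left out here were singled out by their methylation, so this count follows in part from that choice. By diet no member was called at 30 ppm (0% of all zones, 6 members at an unadjusted p under 0.05), at 3 ppm (0.217% of all, 16 members) or at 0.1 ppm (0% of all, 8 members) in the same limma-moderated quasi-binomial model. Without the library against its label at 30 ppm 2 bodies were called there, Wnt9b (6.93 ± 1.37 points) and Fzd5 (5.00 ± 1.29), against 0.401% of all zones. Without the library against its label at 0.1 ppm, where 1 WT and 2 HET embryos are left and the spread comes from the HET embryos alone, 0 members were called (0.453% of all zones), with 11 at an unadjusted p under 0.05 in the limma-moderated model.

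Folic acid alone moved no member zone past the threshold within a genotype. In WT embryos 0 zones were called for 30 against 3 ppm and 0 for 0.1 against 3 ppm (0% of all zones in both), with 1 and 4 members at an unadjusted p under 0.05 in the limma-moderated quasi-binomial model. The differences ran from -6.75 to 5.09 points and from -4.65 to 7.02 points. Without the libraries against their labels 0 were called in both (0% and 0.00306% of all zones), with 1 and 2 at an unadjusted p under 0.05 in the limma-moderated model. The latter again rests on 1 WT embryo of 0.1 ppm, assumed to vary like those of 3 ppm. In HET embryos 0 were called in both (0% of all), with 6 and 6 at an unadjusted p under 0.05. In KO embryos 0 were called for 30 against 3 ppm (0% of all) and 0 for 0.1 against 3 ppm (0.00306% of all), with 9 and 6 at an unadjusted p under 0.05.

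All 9 of the former were lower at 30 ppm, as were 90.03% of the 2226 zones of all genes at that p, led by the Fzd1 body (-16.3 ± 7.84 points), Fzd5 body (-5.24 ± 2.26) and Wnt3a body (-5.11 ± 2.03). No adjusted p was under 0.711. Without the KO library against its label the 3 differences were -9.88 ± 3.81, -3.81 ± 1.79 and -4.35 ± 2.05 points, and 0 zones were called (0.00306% of all) with 8 at an unadjusted p under 0.05 in the limma-moderated model, all lower at 30 ppm. In tiles the comparison of 0.1 with 3 ppm in WT embryos called 0 of 189 (0.00674% of all tiles were), and 10 had an unadjusted p under 0.05 in the same limma-moderated model (5.29%, against 5.77% of all). Without the library against its label 0 tiles of the members were called (0.148% of all). The largest positive differences among those 10, none of them called, were in introns of Lef1 (42.2 to 59.2%), Axin2 (37.4 to 53.6%), Wnt3a (17.6 to 32.4%) and Wnt7b (57.1 to 70.9%), and the largest negative one was in an intron of Wnt5b (66.3 to 48.9%). With the 1 WT embryo of 0.1 ppm that matched its label the differences were 19.1, 16.3, 2.18, 15.2 and -14.3 points. At the Wnt3a tile the 2 embryos of 0.1 ppm stood at 19.8 and 44.9%, the higher being the library against its label.

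KO embryos with a neural tube defect did not differ detectably from normal KO embryos at the WNT genes. With 5 against 7 embryos and diet as a covariate, 0 member zones were called (0% of all zones), and 6 had an unadjusted p under 0.05 in the limma-moderated quasi-binomial model, all lower in the embryos with the defect. This share (6.38%) lies near that over all zones (5.78%), of which 79.4% were lower too. Among these 6 were the body of Tcf7 (-3.09 ± 1.21 points), the body of Wnt7b (-2.31 ± 0.787) and the body of Lef1 (-2.11 ± 1.13). Over all members the differences ran from -3.46 points (Wnt2 body) to 8.10 points (Wnt8a core).

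Other genes of the pathway were counted beside the members from a list of 42 (R-spondins, their LGR receptors, further receptors and inhibitors, and intracellular components), of which 41 could be tested. In KO embryos 2 of 37 cores, 6 of 26 shores and 15 of 39 bodies were called higher (6.54%, 23.4% and 23.2% of all cores, shores and bodies), and 2, 7 and 16 without the libraries against their labels (7.25%, 26.4% and 29.9% of all). The leading ones were the shore (25.4 ± 3.11 points) and body (17.95 ± 1.497) of Lgr6, a receptor of R-spondins, the shore of Kremen1, a receptor of DKK proteins (20.05 ± 2.30), and the body of Rspo1, a secreted enhancer of WNT signalling (16.2 ± 2.01).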

How the data were processed

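RRBS libraries were made from genomic DNA of single brains with MspI and TaqI digestion and oxidative bisulfite conversion. According to the authors' methods, reads were trimmed (Trim Galore 0.6.10), aligned to GRCm38.p6 (Bismark 0.24.1), deduplicated by molecular identifiers with UMI-tools, and methylation was extracted per CpG. The deposited tables list 1 CpG a line, with the methylated fraction and the count of reads, which the authors had neither normalised nor smoothed. Methylated reads were taken as their product, and the listed counts began at 2 reads. The deposited regions of differential methylation hold the authors' own comparisons and were not used. Start sites, coding and untranslated parts came from GENCODE, and positions, counted from 0 in the tables, were raised by 1.

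CpGs with 5 or more reads in all 35 compared embryos (921363 autosomal CpGs) were pooled per zone, giving 32705 zones with 3 or more CpGs. Methylated and unmethylated reads of each zone entered a quasi-binomial logistic regression (Python 3.11.15, NumPy 2.4.6, SciPy 1.17.1) whose dispersion was moderated across all zones as in limma 3.58.1 (R 4.3.3) and held at 1 or above. The two-sided F test was adjusted by Benjamini-Hochberg over all zones, and a zone was called at adjusted p under 0.05 and 5 points (10 points for 1 kb tiles). Differences are mean level differences, adjusted for diet where diets were joined, with their SE. Both come from a linear fit in which each embryo's level had equal weight, whereas the p comes from the logistic model of reads. A difference with its SE and the p beside it are therefore not from the same fit. For the difference in KO effect between diets, the p is on the scale of log odds and the difference in points. The model was run on simulated reads laid out as in the comparison of KO with WT over all diets, and no result here rests on that run. Shifts near 5 points, shifts in nearly unmethylated zones and comparisons within a diet were not simulated. Embryos are separate animals, but littermates share a dam. Litter was tried as a replicate block for genotypes and for neural tube defects, but not in the comparisons between diets. The diet was given to the dam, with 4 litters per diet. Littermates are therefore not independent replicates of a diet, and SEs and p-values between diets may be too small. Residuals of littermates of other genotype correlated by 0.031 on average over 35 pairs (4 pairs above 0.1), against -0.011 between litters. The main comparisons carried no litter term.

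The 38 genes, the other gene list, the zones and the tests were chosen with earlier results of these data known. Values are given for every zone called in a comparison, for the 3 highest and 3 lowest WT levels per zone and for the leading tile of up to 8 genes. The leading tile of 1 of these genes is not reported here. Alternatives were a coverage of 10, leaving out each embryo or the 3 libraries against their labels (for tiles added after seeing the data), litter, sex, single-CpG weights (limma), each embryo's own CpGs, 1 start site per gene, and filters on spread or size. Total depth limits the precision of zones of few CpGs.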

Additional observations from a re-analysis of the deposited data

Results flagged for a closer look

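In 8 of 90 groups of 4 to 6 embryos (the called zones by genotype and diet), 1 embryo stood far from the rest by Dixon's criterion, which chance alone meets in about 1 in 20 groups. Of these 8, 4 were the library labelled KO replicate 1 of 30 ppm, which went against its label at Tet1. Its level was 26.9% in the Fzd1 body, where the other 5 KO embryos of the diet stood at 58.5 to 72.5%. It was 57.8% in the Wnt9a body (68.1 to 72.5% in the others), 76.5% in the Wnt9b body (84.3 to 86.4%) and 61.9% in the Axin2 body (70.1 to 74.1%).

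The other 4 concern libraries whose Tet1 level matched their label. KO replicate 3 of 3 ppm stood at 55.1% in the Sfrp1 body, below the 67.1 to 70.2% of the other KO embryos of that diet. HET replicate 2 of 30 ppm stood at 7.76% in the Fzd7 body, above 3.02 to 3.65% in the other HET embryos. WT replicate 1 of 3 ppm stood at 88.2% in the Wnt11 body (84.6 to 85.1% in the others), and WT replicate 2 of 3 ppm at 14.99% in the Wnt3a body (19.5 to 19.9%).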

How the results depend on the processing

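No called zone changed direction under any alternative in which it could be tested. Among 1034 values of member zones, called or not, 161 changed sign without the libraries against their labels, and none of these was called either way; examples are the Wnt5a body at 30 ppm (1.68 and -3.41 points) and the Sfrp2 body at 0.1 ppm (2.39 and -3.29). Of 1011 values of the called zones under the alternatives, 943 kept their call and 68 lost it, 25 of the latter at 30 ppm. Most were refits without 1 embryo, which share nearly all their embryos (717 kept and 43 lost). At a coverage of 10, 47 of the 56 called results were kept and 3 lost, and the rest could not be tested there. Over all diets the KO count of 18 zones lay between 18 and 20 when single embryos were left out, and fell to 8 when 10 points were required (6.78% of all zones). With only the 5′ end of each gene as start site the Wnt11 shore, Wnt11 body and Wnt7b body lost their calls. At 30 ppm the 3 called zones became 20 without the libraries against their labels, 0 with litter as a replicate block, and 0 to 15 when 1 embryo was left out (0 to 11.4% of all zones). At 0.1 ppm the 16 zones became 7 to 17 when 1 embryo was left out (6.01 to 13.5% of all). The litter block, a pairing of littermates, changed 9 calls of named zones, all within single diets: the 3 at 30 ppm, the Dkk3 body at 3 ppm, and the Wnt2, Wnt3a and Wnt5a bodies and the Tcf7 and Wnt11 shores at 0.1 ppm. It could not be fitted for HET against WT at 0.1 ppm or for neural tube defects, and it was not fitted without the libraries against their labels. For HET against WT over all diets the count of 0 became 2 at a coverage of 10 (0.29% of all zones), 6 without the libraries against their labels (2.23%), 1 with a spread of at least 2 points (0.521%), 2 with sex as a covariate (0.297%), 1 with the excluded HET library included (0.199%), and 0 to 4 when 1 embryo was left out (0.0183 to 1.3%). For HET at 30 ppm it became 2 without the libraries against their labels and 0 to 2 when 1 embryo was left out (at most 0.401% of all), and at 3 ppm 1 at a coverage of 10 (0.415%) and 0 to 2 when 1 embryo was left out (at most 0.324%). Member tiles called in KO fell from 23 of 189 to 14 of 143 at a coverage of 10, at which fewer CpGs are shared (9.27% of all tiles). The causes of the other changes were not tested. Depth limits zones of few CpGs: the Fzd1 body had 39 reads in its shallowest embryo.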
